A study of Homo sapiens with 4 samples.

Results

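The genes described here are 51 human genes of DNA replication licensing and of the replisome, chosen by name for their textbook roles. They cover origin recognition and helicase loading, the helicase itself, the replicative polymerases, the sliding clamp and its loader, fork protection and the supply of deoxynucleotides. All 51 were found among the 39306 gene names of the series, and all 51 passed the filter on low values and were tested. The cells were MHCC97H, a line established from human hepatocellular carcinoma, and their total RNA was sequenced after depletion of ribosomal RNA with a stranded kit. The 2 knockdown libraries came from sh-HNRNPM cells, in which a short hairpin RNA targets HNRNPM, and the 2 wild-type libraries from cells whose genotype the labels give as HNRNPM-wild type. HNRNPM encodes an RNA-binding protein that regulates splicing, and the study asked which alternatively spliced genes depend on it. The labels name no control hairpin and do not state whether 1 hairpin was used for both knockdown libraries, whether the line was cloned, or whether replicates were separate cultures. The p-values therefore reflect only how far these libraries differ, and that spread could be technical.

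Replication of the genome begins with licensing. In G1 phase the origin recognition complex, with CDC6 and CDT1, loads the MCM2-7 helicase onto DNA in an inactive form. In S phase the kinase CDC7 with its partner DBF4 activates the helicase, which joins CDC45 and GINS to unwind DNA ahead of the polymerases. Many of these genes are known targets of E2F transcription factors, which raise their transcription as cells enter S phase, and their mRNAs are abundant in proliferating tumour cells.

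Values are RPKM, reads per kilobase of annotated exon scaled to the assigned reads of the library, as the authors deposited them. The length used is that of all annotated exons of a gene name, so levels of different genes can be compared only roughly. Assigned reads numbered 12708165 and 11498663 in the knockdown libraries and 18317579 and 19659106 in the wild-type libraries. The least sampled library of any replication gene still held 50 reads of it, and the best sampled held 8468. Of 14 hepatic markers, 10 averaged at least 1 RPKM. The 14 summed to 1112 and 1158 RPKM in knockdown libraries, against 921 and 829 RPKM in wild-type libraries. KRT8, the highest, had 638 and 672 RPKM in knockdown libraries, against 538 and 506 RPKM in wild-type libraries. ALB had 1.75 and 1.78 RPKM in knockdown libraries, against 5.35 and 6.28 RPKM in wild-type libraries, and AFP did not exceed 0.436 RPKM in any library. Summed markers of fibroblasts were at 3.59 to 3.76 RPKM in knockdown and 1.31 to 1.52 RPKM in wild-type libraries, those of leukocytes at 3.08 to 3.67 and 1.61 to 1.65 RPKM, and those of endothelium at 6.79 to 7.21 and 9.55 to 10.2 RPKM. In every library LUM made up most of the fibroblast sum, and PECAM1 most of the endothelial sum. The higher leukocyte sum in knockdown libraries lay mainly in TYROBP. Another leukocyte marker, CD14, went the other way, with both knockdown libraries below both wild-type libraries. Each sum thus mainly follows single genes and does not measure the content of a cell type. The leukocyte marker PTPRC was listed at 0 in 3 of the 4 libraries. The part of these markers in the results below was not tested.

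The targeted gene was lower in the libraries labelled as knockdown. HNRNPM had 21.8 and 20.4 RPKM in knockdown libraries, against 51.3 and 51.6 RPKM in wild-type libraries, or 41.0% of the wild-type mean. The fit gave a log2 fold change of -1.35 ± 0.07 (limma adjusted p = 0.00270). Fold changes are knockdown over wild type on the log2(RPKM + 0.1) scale after TMM scaling, a trimmed-mean correction of library composition, and each is given ± its standard error. They come from limma fitted to all 20221 tested genes, and a gene is called if its Benjamini-Hochberg adjusted p is under 0.05.

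The replication genes were mostly lower after HNRNPM knockdown, by modest amounts. Of the 51 genes, 17 fell, 1 rose and 33 did not pass the test. The called falls lie in the MCM2-7 helicase, in DNA polymerases epsilon and alpha, in the origin recognition complex, in helicase activation (MCM10 and CDC7), in the clamp and its loader (PCNA and RFC4), in Okazaki fragment maturation (FEN1) and in all 3 fork protection and methylation genes. Those that fell retained between 59.0% and 86.5% of the wild-type RPKM. The 17 genes that fell are 33.3% of the 51, beside 13.8% of all tested genes called lower. The single gene that rose is 1.96% of the 51, beside 11.1% of all tested genes called higher. Among the 15665 tested genes with a mean RPKM at least that of the lowest replication gene, 16.2% were called lower and 12.5% higher. The median log2 fold change of the 51 genes was -0.25, beside -0.03 over all tested genes, and 42 of the 51 estimates were below 0. In bulk RNA, fewer cells in S phase and less mRNA per cell cannot be told apart.

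Library by library the genes kept to this pattern. Both knockdown libraries lay below both wild-type libraries in 34 of the 51 genes (66.7%), beside 31.4% of all tested genes. They lay above both wild-type libraries in 7 genes (13.7%), beside 36.2% of all tested genes, and the groups overlapped in the other 10. Summed over the 51 genes, the level was 689 and 682 RPKM in knockdown libraries, against 790.4 and 751 RPKM in wild-type libraries. The genes took 0.276% and 0.275% of assigned reads in knockdown libraries, against 0.328% and 0.314% in wild-type libraries. A median of each library's log2 deviation over the 51 genes gave -0.10 and -0.14 in knockdown libraries, against 0.15 and 0.12 in wild-type libraries. Over all tested genes the same median was -0.007 and -0.018 in knockdown libraries, against 0.013 and 0.030 in wild-type libraries. These medians restate the fold changes by library and are not separate evidence. For a single value an exact two-sided permutation test between 2 and 2 libraries cannot go below p = 0.333, so the calls rest on the spread that limma shares across genes.

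Limma-voom on the reads recovered from the RPKM values called 25 of the 51 genes lower and 3 higher, beside 19.6% and 16.2% of all tested genes, and its lower calls included all 17. With any 1 library left out, fewer than the 18 genes of the main fit were called, but calls over all tested genes dropped too. The median log2 fold change of the 51 genes was then -0.27 to -0.24. POLE, POLA2, MCM6, MCM5 and ORC5 were called lower under each of the 14 alternative settings tried. None of the 18 called genes changed direction under any of them.

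**Figure D1:**
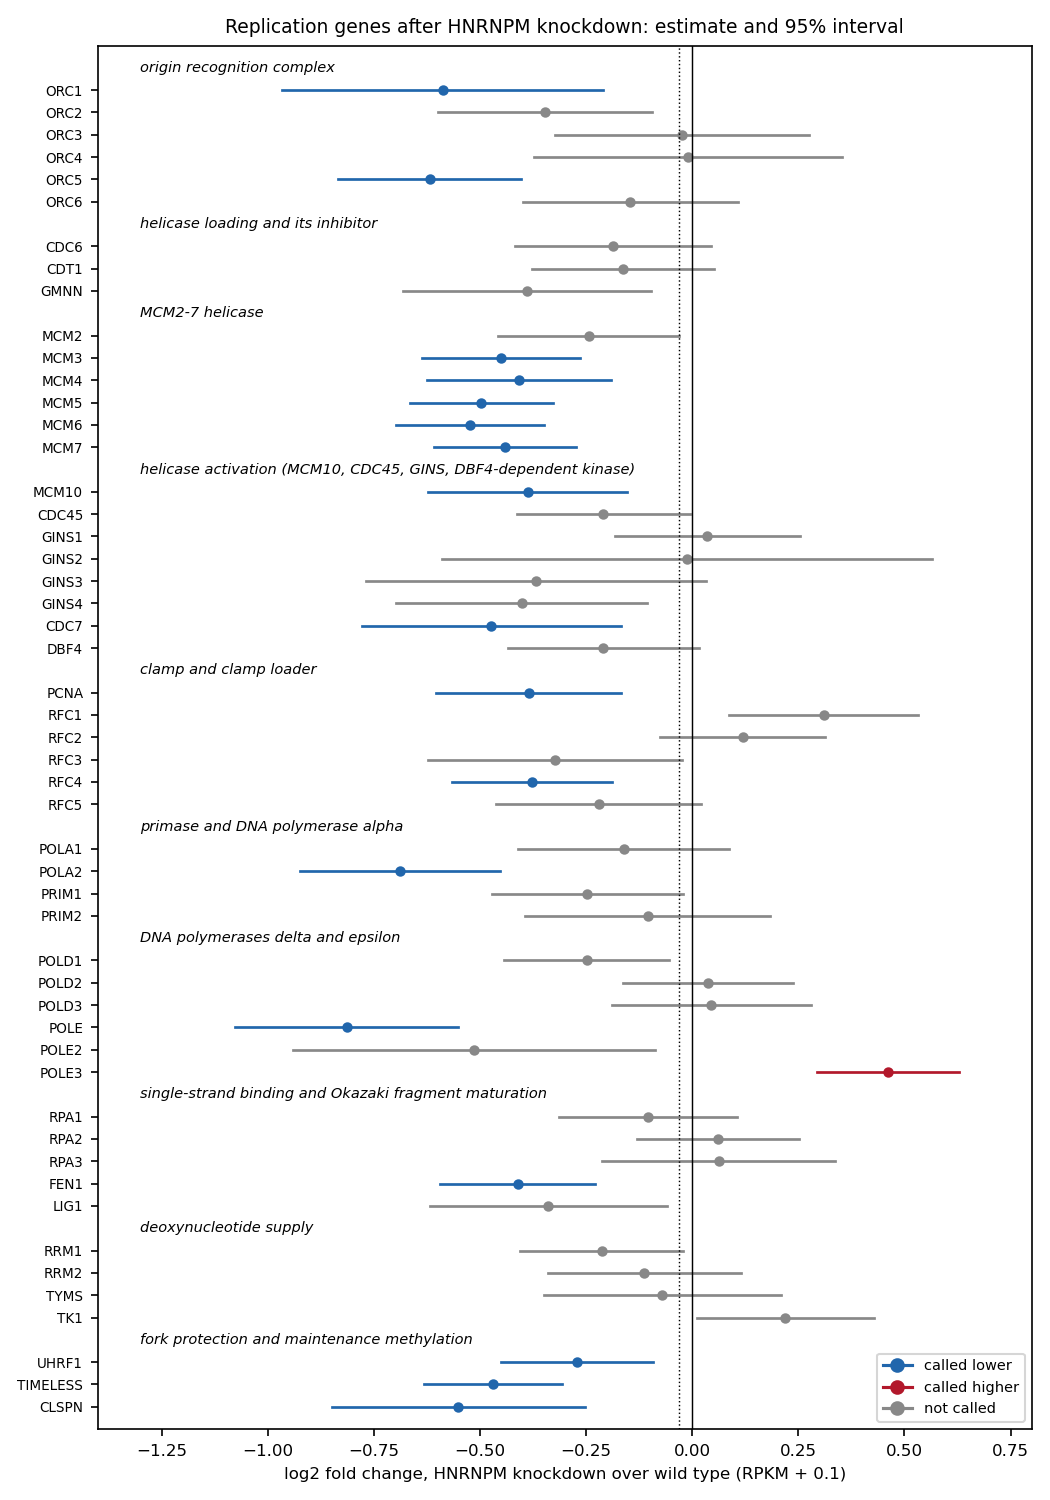
Log2 fold change of each of the 51 replication genes, HNRNPM knockdown over wild type (points), with limma's 95% interval (lines), grouped by role; blue marks genes called lower, red the gene called higher and grey those not called. The solid line is 0 and the dotted line the median of all tested genes, -0.03; 42 of the 51 points lie left of 0, from -0.81 for POLE to 0.46 for POLE3.

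The promoters of genes that fell are shown first, because E2F factors are the textbook regulators of this group. RefSeq promoter windows on GRCh38.p14, from 250 bases before to 50 bases after a gene's start, were found for 45 of the 51 genes, 61 windows in all since some genes have several starts. None was found for MCM4, MCM5, GINS4, POLD3, RPA2 and RPA3. An E2F-type motif was searched on both strands in 4 forms, TTTCCCGC, TTTCGCGC, TTTGCCGC and TTTGGCGC, and the CCAAT box as CCAAT. Matches can overlap: E2F-type motifs on opposite strands do so in MCM6, and an E2F-type motif shares its last base with a CCAAT box at the MCM7 start. The stretches below, of 100 bases each, run 5′ to 3′ on the gene's strand, with the E2F-type motifs and CCAAT boxes that lie wholly inside them, on either strand, in capitals. Of the genes that fell and have an E2F-type motif before the start, the 4 with the smallest adjusted p are shown, and PCNA is added for its role.
POLE promoter, chr12:132687343-132687442, minus strand: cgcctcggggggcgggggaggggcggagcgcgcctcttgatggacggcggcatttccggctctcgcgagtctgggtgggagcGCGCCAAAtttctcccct
MCM6 promoter, chr2:135876476-135876575, minus strand: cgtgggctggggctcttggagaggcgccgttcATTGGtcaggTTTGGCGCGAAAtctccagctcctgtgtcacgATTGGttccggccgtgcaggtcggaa
POLA2 promoter, chr11:65261862-65261961, plus strand: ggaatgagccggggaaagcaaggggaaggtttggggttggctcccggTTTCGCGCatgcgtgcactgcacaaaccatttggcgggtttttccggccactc
MCM7 promoter, chr7:100101398-100101497, minus strand: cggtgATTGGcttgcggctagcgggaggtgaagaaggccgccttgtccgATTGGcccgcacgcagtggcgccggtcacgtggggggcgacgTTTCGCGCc
PCNA promoter, chr20:5126628-5126727, minus strand: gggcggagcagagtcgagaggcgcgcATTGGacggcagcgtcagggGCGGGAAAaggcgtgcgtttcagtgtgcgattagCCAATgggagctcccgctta

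In the MCM6 stretch a pair of E2F-type motifs overlaps on opposite strands between 2 reverse CCAAT boxes. The MCM6 window holds 4 E2F-type matches in all, the most of any replication gene. In POLE the motif starts 18 bases before the gene's start, in POLA2 53 and in PCNA 59 bases before it.

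Across the 61 windows of replication genes, 23 held an E2F-type motif (37.7%), beside 3.31% of all 35116 windows in the table and 4.63% of the 15810 windows of tested genes. A CCAAT box was held by 33 windows (54.1%), beside 34.6% of all windows. Counted by gene, an E2F-type motif was found for 9 of the 15 genes that fell and had a window, and for 13 of the 29 that were not called, beside 6.27% of tested genes with a window. POLE3, the gene that rose, had neither motif in its 3 windows. These shares describe sequence letters near annotated starts, and windows of one gene can overlap each other.

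The origin recognition complex, which marks where replication can start, fell in 2 of its 6 subunits, with no subunit called higher. ORC5 (chromosome 7, positions 104126341 to 104208047, minus strand) had 6.17 and 6.63 RPKM in knockdown libraries, against 9.60 and 9.30 RPKM in wild-type libraries. This is a log2 fold change of -0.62 ± 0.09 (limma adjusted p = 0.00875). ORC1, the subunit whose level is known to vary through the cell cycle, had 4.44 and 4.44 RPKM in knockdown libraries, against 7.47 and 5.53 RPKM in wild-type libraries. The groups do not overlap in ORC1, but the wild-type pair is spread widely and its log2 fold change of -0.59 ± 0.15 passed narrowly (limma adjusted p = 0.0424). ORC1 missed the threshold without knockdown replicate 1, without knockdown replicate 2 and without wild-type replicate 1 (limma adjusted p = 0.0936 to 0.103), and its call also ended with RPKM as deposited and with median-of-ratios factors. ORC2 stood at 81.8% of the wild-type mean and did not pass (limma adjusted p = 0.0582). ORC3, ORC4 and ORC6 overlapped between the groups. For ORC3 the 95% interval of the log2 fold change ran from -0.32 to 0.27, and for ORC4 from -0.37 to 0.35.

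The 3 loading and licensing-control genes did not pass. CDC6, the loading ATPase, had 7.92 and 7.15 RPKM in knockdown libraries, against 7.98 and 8.44 RPKM in wild-type libraries (log2 fold change -0.19 ± 0.09, limma adjusted p = 0.190). CDT1, its partner, had 9.81 and 9.28 RPKM in knockdown libraries, against 10.8 and 9.71 RPKM in wild-type libraries, and the groups overlap. GMNN, which encodes geminin, the inhibitor of CDT1, was at 79.4% of the wild-type mean (log2 fold change -0.39 ± 0.12, limma adjusted p = 0.0624). The ratio of CDT1 to GMNN RPKM, picked after values had been seen, was 1.95 and 2.13 in knockdown libraries, against 1.93 and 1.56 in wild-type libraries. It was untested, and knockdown replicate 1 lay close to wild-type replicate 1.

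The MCM2-7 helicase fell in 5 of its 6 subunits. The sixth, MCM2, did not pass, but in each of the 6 both knockdown libraries lay below both wild-type libraries. The subunits' log2 fold changes spanned only -0.52 to -0.24, with a median of -0.45. Summed over the 6 subunits, the level was 181 and 188 RPKM in knockdown libraries, against 242 and 233 RPKM in wild-type libraries.

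MCM6 (chromosome 2, positions 135839626 to 135876426, minus strand) had 16.8 and 15.8 RPKM in knockdown libraries, against 23.0 and 21.9 RPKM in wild-type libraries. MCM5 (chromosome 22, positions 35400063 to 35425430, plus strand) had 14.7 and 14.9 RPKM in knockdown libraries, against 20.4 and 19.7 RPKM in wild-type libraries. In both genes the wild-type libraries exceed the knockdown libraries by far more than the pairs differ within themselves. The log2 fold changes of MCM6 and MCM5 were -0.52 ± 0.07 and -0.50 ± 0.07 (limma adjusted p = 0.00772 and 0.00826).

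MCM7, the highest of the 51 genes by RPKM, had 74.3 and 77.7 RPKM in knockdown libraries, against 99.2 and 98.2 RPKM in wild-type libraries. MCM3 had 24.1 and 26.3 RPKM in knockdown libraries, against 33.2 and 32.7 RPKM in wild-type libraries. MCM4 had 28.4 and 27.4 RPKM in knockdown libraries, against 38.2 and 32.8 RPKM in wild-type libraries. The pairs are tight except for MCM4 in wild type, where replicate 1 stands above replicate 2. Log2 fold changes were -0.44 ± 0.07 for MCM7, -0.45 ± 0.07 for MCM3 and -0.41 ± 0.09 for MCM4 (limma adjusted p = 0.0109, 0.0133 and 0.0260). MCM3 and MCM7 missed the threshold without knockdown replicate 1 (limma adjusted p = 0.0776 and 0.0833), and MCM4 without knockdown replicate 1, knockdown replicate 2 or wild-type replicate 1 (limma adjusted p = 0.0505 to 0.102). MCM2 had 22.8 and 25.8 RPKM in knockdown libraries, against 27.6 and 27.3 RPKM in wild-type libraries. At -0.24 ± 0.09 on the log2 scale it missed the threshold (limma adjusted p = 0.0906).

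The 6 subunits form a hexamer with 1 copy of each, yet their RPKM were far from equal in either group. MCM7 exceeded MCM5, the lowest, by 5.13-fold in knockdown libraries (mean RPKM) and by 4.93-fold in wild-type libraries. The exon lengths behind these RPKM are 4386 bp for MCM7 and 7338 bp for MCM5, and their part in this difference was not tested. The MCM7 locus contains microRNA genes within an intron, and 8.94% of its exon bases overlap exons of AP4M1 on the other strand.

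**Figure D2:**
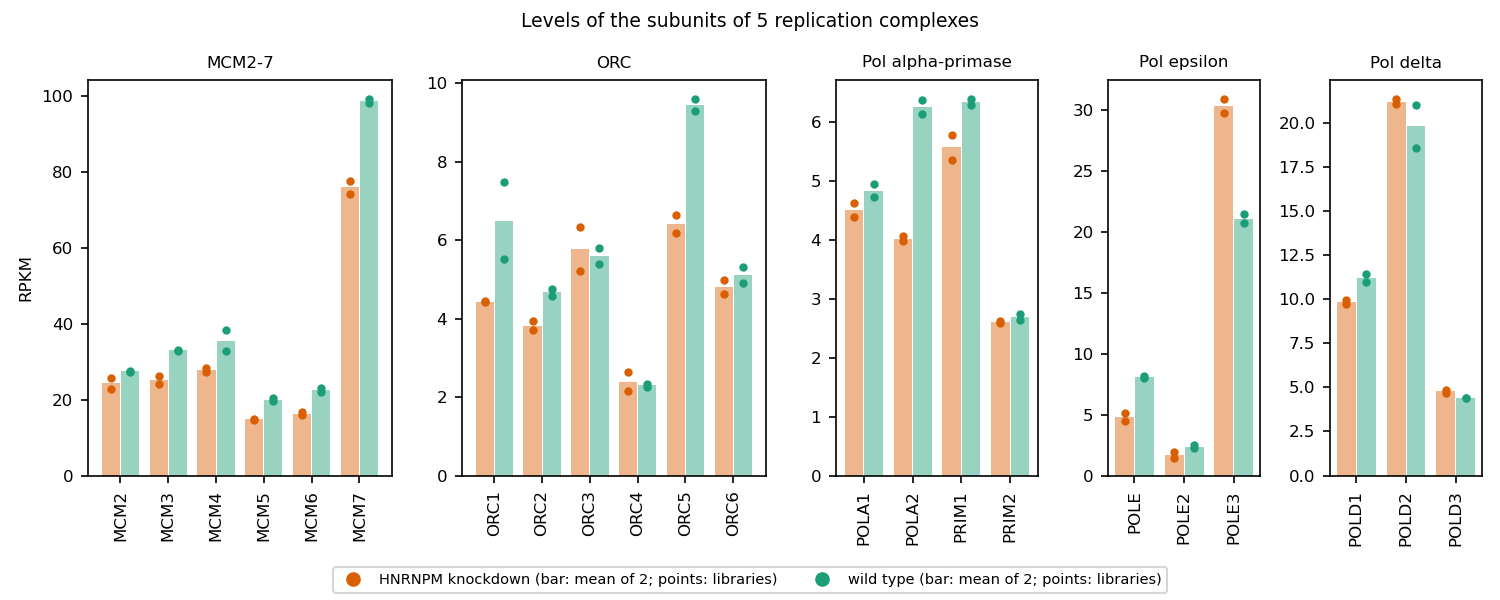
RPKM of those subunits of 5 replication complexes that are among the 51 genes. Bars are means of 2 libraries, points the single libraries, orange knockdown and green wild type, each panel on its own axis from 0. All MCM bars are lower in knockdown, ORC5 and ORC1 stand out in the origin recognition complex, POLA2 in DNA polymerase alpha-primase, and in DNA polymerase epsilon POLE is lower and POLE3 higher in knockdown.

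Among the 8 genes of helicase activation 2 fell and none was called higher. MCM10, which binds the activated helicase, had 4.52 and 4.56 RPKM in knockdown libraries, against 5.93 and 5.50 RPKM in wild-type libraries (log2 fold change -0.39 ± 0.09, limma adjusted p = 0.0368). CDC7, the catalytic subunit of the activating kinase, had 2.39 and 2.69 RPKM in knockdown libraries, against 3.41 and 3.40 RPKM in wild-type libraries (log2 fold change -0.47 ± 0.12, limma adjusted p = 0.0427). The groups do not overlap in either gene. Neither passed once any 1 of the 4 libraries was left out (limma adjusted p = 0.0784 to 0.140 for MCM10 and 0.0687 to 0.167 for CDC7), nor with RPKM as deposited, and CDC7 also missed the threshold with a replicate block. DBF4, the regulatory subunit of the kinase, and CDC45 each stood at 90.2% of the wild-type mean and did not pass.

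The 4 GINS subunits, which complete the active helicase, did not pass. GINS4 and GINS3 had log2 fold changes of -0.40 ± 0.12 and -0.37 ± 0.16, and GINS1 had 0.04 ± 0.09. GINS2 had 3.21 and 2.40 RPKM in knockdown libraries, against 3.28 and 2.18 RPKM in wild-type libraries. The members of each GINS2 pair thus differ more than the groups do, and its 95% interval, from -0.59 to 0.56 on the log2 scale, is the widest of the 51. Of GINS4 and GINS3 exon bases, 23.6% and 10.9% overlap other genes on the opposite strand.

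The sliding clamp fell together with 1 of its 5 loader subunits, while other loader subunits had estimates on both sides of 0. PCNA, the clamp that tethers polymerases to DNA, had 43.3 and 37.3 RPKM in knockdown libraries, against 51.5 and 49.0 RPKM in wild-type libraries (log2 fold change -0.39 ± 0.09, limma adjusted p = 0.0300). RFC4 had 9.24 and 9.05 RPKM in knockdown libraries, against 11.7 and 11.1 RPKM in wild-type libraries (log2 fold change -0.38 ± 0.08, limma adjusted p = 0.0220). The groups are separate in both genes. RFC1, the large subunit of the loader, was at 10.8 and 9.87 RPKM in knockdown libraries, against 7.67 and 8.21 RPKM in wild-type libraries. A log2 fold change of 0.31 ± 0.09 missed the threshold in limma (adjusted p = 0.0561) and passed in limma-voom (adjusted p = 0.00536). RFC2, RFC3 and RFC5, which are small subunits like RFC4, had log2 fold changes of 0.12, -0.32 and -0.22 and did not pass. RFC4 missed the threshold once any 1 of the 4 libraries was left out (limma adjusted p = 0.0524 to 0.0977). PCNA missed it without knockdown replicate 2, wild-type replicate 1 or wild-type replicate 2 (limma adjusted p = 0.0741 to 0.150) and with RPKM as deposited.

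DNA polymerase alpha-primase, which lays the first RNA and DNA of each new strand, fell in 1 of 4 subunits. POLA2, its accessory subunit (chromosome 11, positions 65261762 to 65305589, plus strand), had 3.97 and 4.06 RPKM in knockdown libraries, against 6.12 and 6.37 RPKM in wild-type libraries. The knockdown pair is thus at 64.3% of the wild-type mean, far below it relative to the spread of either pair (log2 fold change -0.69 ± 0.09, limma adjusted p = 0.00827). The log2 fold change of POLA1, the catalytic subunit, was -0.16 ± 0.10, and the primase subunits PRIM1 and PRIM2 had -0.25 ± 0.09 and -0.11 ± 0.12. None of these 3 passed (limma adjusted p = 0.0990 to 0.538), although both knockdown libraries lay below both wild-type libraries in each.

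DNA polymerase epsilon, which copies the leading strand, held both the largest fall and the only rise. POLE, its catalytic subunit (chromosome 12, positions 132623753 to 132687365, minus strand), had 4.45 and 5.10 RPKM in knockdown libraries, against 8.19 and 7.99 RPKM in wild-type libraries. The log2 fold change, -0.81 ± 0.11 (limma adjusted p = 0.00732), had a 95% interval from -1.08 to -0.55. POLE3, a histone-fold subunit that also belongs to a chromatin remodelling complex, had 30.9 and 29.8 RPKM in knockdown libraries, against 20.7 and 21.4 RPKM in wild-type libraries. It was 0.46 ± 0.07 higher on the log2 scale (limma adjusted p = 0.00966), and it missed the threshold without knockdown replicate 1 (limma adjusted p = 0.0576).

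The ratio of POLE to POLE3 RPKM, picked after values had been seen, was 0.144 and 0.171 in knockdown libraries, against 0.396 and 0.373 in wild-type libraries. This ratio was untested. It sets the largest fall against the only called rise, so separate groups follow from the choice of genes. POLE2, the accessory subunit, had 1.94 and 1.47 RPKM in knockdown libraries, against 2.48 and 2.24 RPKM in wild-type libraries, from as few as 50 reads, and did not pass (log2 fold change -0.51 ± 0.17, limma adjusted p = 0.0798). In DNA polymerase delta, the lagging-strand polymerase, none of the 3 subunits passed. Its catalytic subunit POLD1 had 9.72 and 9.95 RPKM in knockdown libraries, against 11.0 and 11.4 RPKM in wild-type libraries (log2 fold change -0.25 ± 0.08, limma adjusted p = 0.0687). The accessory subunits POLD2 and POLD3 had log2 fold changes of 0.04 and 0.05, with 95% intervals from -0.16 to 0.24 and from -0.19 to 0.28.

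Of the genes that protect single-stranded DNA and join Okazaki fragments, FEN1 fell. FEN1, the flap endonuclease that trims Okazaki fragments, had 20.5 and 20.3 RPKM in knockdown libraries, against 27.3 and 24.8 RPKM in wild-type libraries (log2 fold change -0.41 ± 0.07, limma adjusted p = 0.0163). It missed the threshold without knockdown replicate 1 or knockdown replicate 2 (limma adjusted p = 0.0748 and 0.0718), and 8.68% of its exon bases overlap exons of TMEM258 and FADS2. LIG1, the ligase that seals the fragments, was at 82.5% of the wild-type mean and did not pass (limma adjusted p = 0.0786). RPA1, RPA2 and RPA3, the single-strand binding subunits, had log2 fold changes of -0.10, 0.06 and 0.06. Their 95% intervals ran from -0.31 to 0.11, from -0.13 to 0.25 and from -0.21 to 0.34.

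No gene of deoxynucleotide supply passed, although their RPKM are among the higher of the 51. TK1, the thymidine salvage kinase, had 56.1 and 60.4 RPKM in knockdown libraries, against 50.6 and 45.2 RPKM in wild-type libraries. Both knockdown libraries are above both wild-type libraries, but the log2 fold change of 0.22 ± 0.08 missed the threshold in limma (adjusted p = 0.108) and passed in limma-voom (adjusted p = 0.0362). TYMS, thymidylate synthase, had 33.4 and 32.9 RPKM in knockdown libraries, against 37.3 and 29.7 RPKM in wild-type libraries, so the knockdown pair lies inside the wild-type pair. Exons of ENOSF1 and TYMSOS cover 26.2% of its exon bases. RRM1 and RRM2, the large and small subunits of ribonucleotide reductase, had log2 fold changes of -0.21 ± 0.08 and -0.11 ± 0.09 (limma adjusted p = 0.0963 and 0.404). The 95% interval for RRM2 ran from -0.34 to 0.11.

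All 3 of the 51 genes that are grouped here under fork protection and maintenance methylation fell. The fork gene TIPIN, outside the 51 and counted with the fork accessory genes below, did not. TIPIN had 5.80 and 4.70 RPKM in knockdown libraries, against 5.21 and 4.25 RPKM in wild-type libraries. Its log2 fold change was 0.09 ± 0.15 (limma adjusted p = 0.705). TIMELESS, a subunit of the fork protection complex (chromosome 12, positions 56416373 to 56449403, minus strand), had 22.4 and 22.9 RPKM in knockdown libraries, against 29.9 and 30.2 RPKM in wild-type libraries. Both pairs are tight, and the log2 fold change was -0.47 ± 0.07 (limma adjusted p = 0.00855). CLSPN, which encodes claspin, the mediator that lets ATR activate CHK1, had 4.22 and 3.57 RPKM in knockdown libraries, against 5.75 and 5.23 RPKM in wild-type libraries (log2 fold change -0.55 ± 0.12, limma adjusted p = 0.0270). UHRF1, which brings the maintenance DNA methyltransferase to newly copied DNA, had 22.5 and 23.5 RPKM in knockdown libraries, against 26.1 and 27.1 RPKM in wild-type libraries. With -0.27 ± 0.07 on the log2 scale it is the smallest of the called changes (limma adjusted p = 0.0444).

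Without knockdown replicate 1 TIMELESS narrowly missed the threshold (limma adjusted p = 0.0539). CLSPN missed it without knockdown replicate 2, wild-type replicate 1 or wild-type replicate 2 (limma adjusted p = 0.0708 to 0.102), and UHRF1 once any 1 of the 4 libraries was left out (limma adjusted p = 0.0646 to 0.235). The UHRF1 call also ended with RPKM as deposited, with median-of-ratios factors, with robust moderation and without a filter on low values. Without that filter the calls of ORC1, MCM3, MCM4, MCM10, CDC7, PCNA, RFC4, FEN1 and CLSPN ended too.

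**Figure D3:**
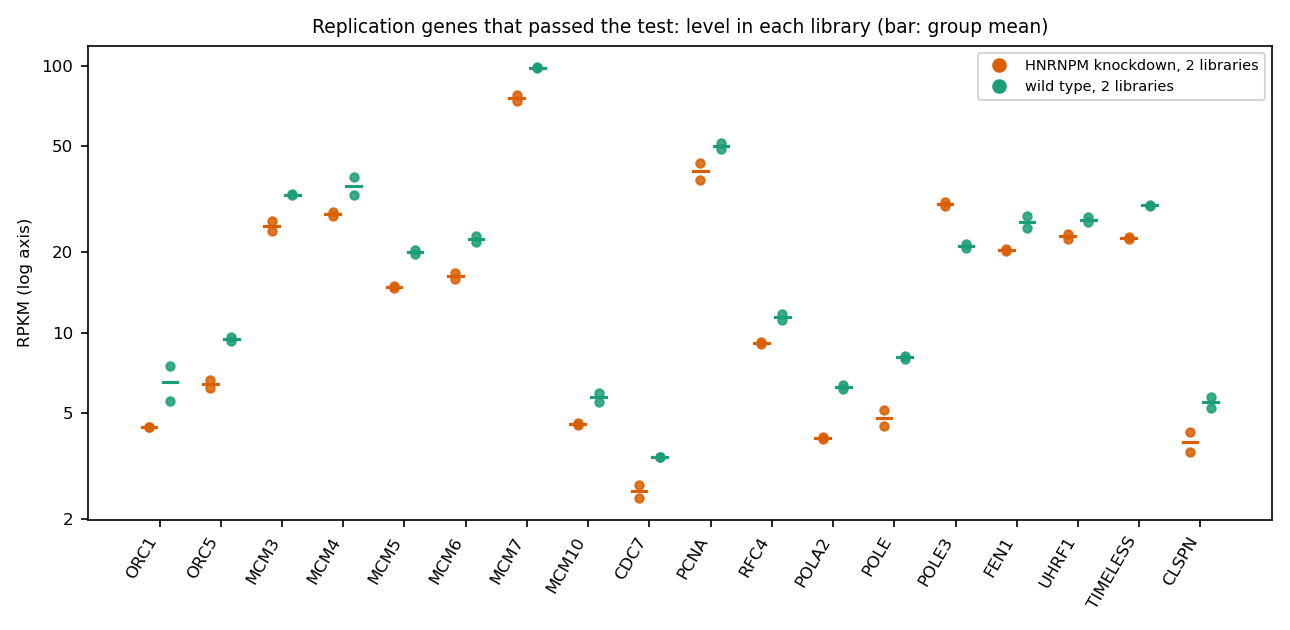
RPKM in each library (log axis) of the 18 replication genes that passed the test, HNRNPM knockdown in orange on the left of each pair and wild type in green on the right; points are libraries and short bars the group means. The 17 genes that fell have both knockdown points below both wild-type points, and POLE3 has them above.

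The genes that fell had higher wild-type levels than those not called, with a median of 20.02 RPKM against 7.94 RPKM. The calls themselves use the wild-type values. The standard error of the log2 fold change was 0.07 in MCM7, the highest gene, and 0.23 in GINS2, a gene of low level. The part of level in which genes passed was not tested. Median exon length was 4386 bp for genes that fell and 4177 bp for genes not called, beside 3572 bp over all tested genes. The median gene span was 31.6 kb for genes that fell and 33.8 kb for genes not called, beside 19.8 kb over all tested genes. Removing each library's trend with exon length left 18 lower and 2 higher calls. Over all tested genes it gave 3089 lower and 2576 higher calls, against 2792 and 2240 in the main fit. Exons of 21 of the 51 genes overlap those of another gene, but only in GINS3, GINS4, RFC5 and TYMS is the overlap over 10% of exon bases, and none of these 4 was called. Among called genes with overlaps, MCM7 and FEN1 are given above, and the shares were 5.17% for CLSPN, 3.99% for POLE3 and 0.701% for RFC4.

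Other genes of licensing control and of the fork were lower where they were called. Of 19 genes of licensing control and origin firing, 4 fell (21.1%, beside 13.8% of all tested genes) and 0 rose (beside 11.1%). Their median log2 fold change was -0.22. Limma-voom called 7 of them lower and 0 higher, where it called 19.6% of all tested genes lower and 16.2% higher. RECQL4, a helicase needed for origin firing, averaged 13.3 ± 0.445 RPKM in knockdown libraries and 18.1 ± 0.273 RPKM in wild-type libraries (SD, n = 2 each), a log2 fold change of -0.50 ± 0.07. CCNA2, cyclin A2, and TICRR, the origin firing factor treslin, had log2 fold changes of -0.38 ± 0.07 and -0.46 ± 0.09. Of 26 fork accessory and chromatin assembly genes, 8 fell (30.8%, beside the same 13.8%) and 0 rose (beside the same 11.1%), with a median of -0.22. Limma-voom called 12 of these lower and 0 higher, beside the same 19.6% and 16.2%. TONSL, which reads newly made histones behind the fork, had 6.83 and 7.03 RPKM in knockdown libraries, against 11.5 and 11.2 RPKM in wild-type libraries, a log2 fold change of -0.77 ± 0.08. TOP2A, topoisomerase II alpha, and DNMT1, the maintenance methyltransferase, had log2 fold changes of -0.44 ± 0.07 and -0.41 ± 0.07. The limma adjusted p of these named genes ran from 0.00517 in TONSL to 0.0189 in TICRR. The licensing control calls numbered 0 and 1 without knockdown replicates 1 and 2, and 1 and 2 without wild-type replicates 1 and 2. The fork calls numbered 2 and 1 without knockdown replicates 1 and 2, and 3 without either wild-type replicate.

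Of 22 other genes of nucleotide synthesis, 5 fell (22.7%, beside 13.8% of all tested genes) and 1 rose (4.55%, beside 11.1%), with a median log2 fold change of -0.11. Limma-voom called 6 lower and 3 higher, beside 19.6% and 16.2% of all tested genes. CAD, which starts pyrimidine synthesis, had 10.5 and 10.7 RPKM in knockdown libraries, against 19.1 and 18.3 RPKM in wild-type libraries (log2 fold change -0.88 ± 0.07, limma adjusted p = 0.00396). CTPS1 and GART, of pyrimidine and purine synthesis, had log2 fold changes of -0.57 ± 0.09 and -0.44 ± 0.07 (limma adjusted p = 0.0127 and 0.0146). The gene that rose, NME1, is a nucleoside diphosphate kinase and had a log2 fold change of 0.29 ± 0.08 (limma adjusted p = 0.0424). No gene of the list was called higher with robust moderation, with no filter, or without knockdown replicate 1, knockdown replicate 2 or wild-type replicate 2. Of 13 polymerases of translesion synthesis and repair, 2 fell and 0 rose, with 3 lower and 0 higher in limma-voom and a median of -0.15. Their share called lower, 15.4%, is near the 13.8% of all tested genes. The genes that fell were REV1 (log2 fold change -0.68 ± 0.12, limma adjusted p = 0.0156) and POLQ (-0.38 ± 0.09, limma adjusted p = 0.0395). The nucleotide synthesis calls numbered 2 without either knockdown replicate, 5 without wild-type replicate 1 and 3 without wild-type replicate 2. Among the polymerases 1 call was left without knockdown replicate 1 and 0 without any of the other libraries.

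The list of E2F and pocket protein genes, which also holds TFDP1, TFDP2, LIN9, LIN37, LIN52, LIN54 and MYBL2, was mostly not called. LIN37, LIN52, LIN54 and MYBL2 had log2 fold changes of 0.27, 0.44, 0.39 and 0.07, and LIN9 had -0.37, none of them called in limma. Of 18 genes 3 fell and 0 rose, beside 11.1% of all tested genes called higher. Limma-voom called 3 lower and 1 higher, beside 19.6% and 16.2% of all tested genes. The median log2 fold change was 0.01. The share that fell, 16.7%, is near the 13.8% of all tested genes. E2F1, an activating E2F, had 8.96 and 8.51 RPKM in knockdown libraries, against 11.9 and 11.6 RPKM in wild-type libraries (log2 fold change -0.48 ± 0.08, limma adjusted p = 0.0114). E2F2, another activator, had 1.49 and 1.35 RPKM in knockdown libraries, against 2.31 and 2.30 RPKM in wild-type libraries (log2 fold change -0.72 ± 0.13, limma adjusted p = 0.0180). The third was RBL1, the pocket protein p107 (log2 fold change -0.50 ± 0.09, limma adjusted p = 0.0154). The calls numbered 3 without knockdown replicate 1, 0 without knockdown replicate 2 and 1 without either wild-type replicate.

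Genes of mitosis, the phase after replication, fell in most of the genes listed. Of 30 genes 21 fell (70.0%, beside 13.8% of all tested genes) and 0 rose (beside 11.1%), with a median log2 fold change of -0.43. Limma-voom called 22 lower and 0 higher, beside 19.6% and 16.2% of all tested genes. ASPM, a spindle pole protein, CENPF, a kinetochore protein, and CCNB1, cyclin B1, had log2 fold changes of -1.38 ± 0.07, -0.99 ± 0.08 and -0.78 ± 0.07 (limma adjusted p = 0.00285, 0.00379 and 0.00419). The largest fall among the 51 replication genes, -0.81 in POLE, is smaller than the falls of ASPM and CENPF. The count of mitotic calls dropped to 12 without knockdown replicate 2. The difference between the mitotic and the replication genes was not tested.

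**Figure D4:**
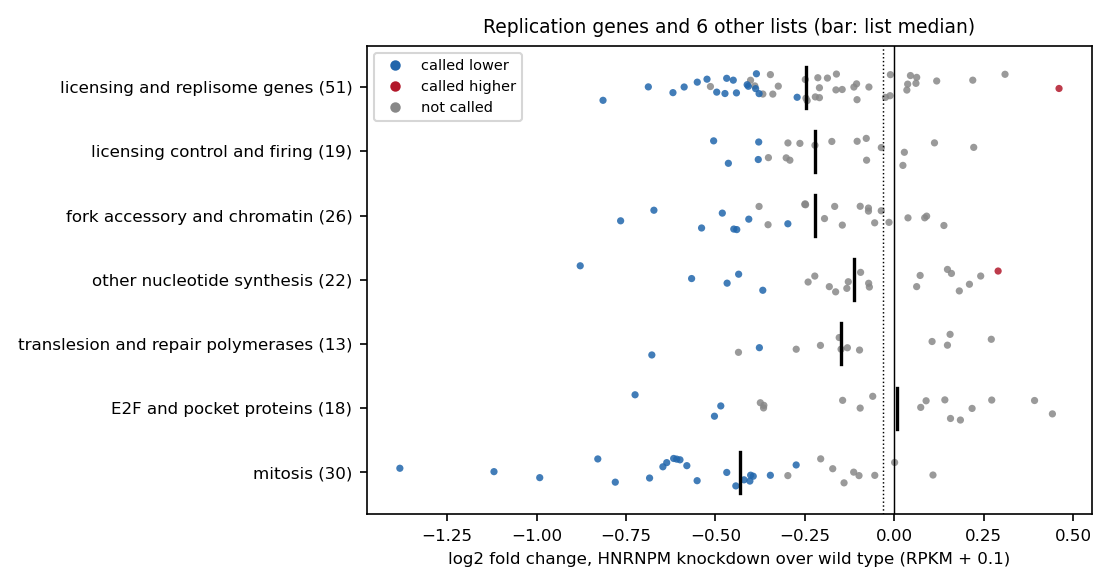
Log2 fold change, HNRNPM knockdown over wild type, of the 51 replication genes (top) and of 6 other lists, each point a gene and each black bar the list's median; blue marks genes called lower, red those called higher and grey those not called. The solid line is 0 and the dotted line the median of all tested genes, -0.03; list medians run from -0.43 for mitosis to 0.01 for E2F and pocket proteins, with -0.25 for the replication genes.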

How the data were processed

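Total RNA of 4 MHCC97H libraries was sequenced; per the labels, the kit is stranded and adds molecular identifiers. Per the file headers, the authors' tables give the RPKM of each gene name with its exon length and coordinates. The submitters' processing notes list StringTie 1.3.2, edgeR 3.12.1, Subread 1.5.1, featureCounts and Trimmomatic 0.36. No source used here states the aligner, the strand setting or the use of the identifiers. Those notes name mm9, but the deposited coordinates are human: all 51 genes overlap their GENCODE 29 (GRCh38) locus, 49 with the same start and end.

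RPKM times exon length gave whole reads, within 0.01, for 100% of values. RPKM were divided by TMM factors (0.972 to 1.03; trims of 30% and 5%) and log2(RPKM + 0.1) was fitted with limma 3.58.1 (R 4.3.3), with group as the only term. A tested gene had at least 10 reads, scaled to median depth, in 2 or more libraries and 15 in total. The code was tested on simulated data. RPKM are not counts, so limma-voom on the recovered reads served only as an alternative.

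The members, lists and tests were chosen with earlier results of these data known. All 51 genes are described, and from each other list the 3 called genes with the smallest adjusted p; NME1 and the ratios were picked after their values were seen. Alternatives were other scalings, pseudocounts of 1 and 0.01, no filter or a stricter one, limma-voom, robust moderation, removal of the exon length trend, a replicate block, and leaving out each library.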

Additional observations from a re-analysis of the deposited data

How the results depend on the processing

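The called replication genes numbered 8 without a filter on low values (7 lower and 1 higher) and 28 by limma-voom, and 7 to 12 with 1 library left out. Their median log2 fold change was -0.18 with RPKM as deposited and -0.21 with a pseudocount of 1, within -0.27 to -0.18 under all 14 alternatives, and -0.27 to -0.24 with 1 library left out. Over all tested genes 1806 were called without a filter and 2513 to 3218 with 1 library left out. RPKM as deposited called 2783 genes higher and 2234 lower (55.5% higher), against 2240 and 2792 with TMM factors (44.5% higher).

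Without a filter the calls numbered 1 in licensing control, 3 in the fork list, 2 in nucleotide synthesis, 0 among repair polymerases (3 by limma-voom), 1 among E2F and pocket proteins and 12 in mitosis. Limma-voom called 7 licensing control genes. Repair polymerases had 1 call with RPKM as deposited. With 1 library left out the ranges were 0 to 2, 1 to 3, 2 to 5, 0 to 1, 0 to 3 and 12 to 16 calls in the order given. HNRNPM stayed called under all alternatives.

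Labels give both groups the same replicate numbers without a shared source, and within-group deviations of same-numbered libraries correlated at 0.0628 across genes. With a replicate block 18 replication genes and 5129 of all genes were called, and repair polymerases had 1 call.

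In 7 genes that were not called the log2 fold change changed sign. With RPKM as deposited it was 0.038 in ORC3, 0.050 in ORC4 and 0.050 in GINS2. With median-of-ratios factors it was 0.011 in ORC4 and 0.010 in GINS2, after removal of the length trend 0.029 in ORC4, and by limma-voom 0.0064 in GINS2. With 1 library left out the ranges were -0.16 to 0.11 in ORC3, -0.15 to 0.13 in ORC4, -0.045 to 0.12 in GINS1, -0.29 to 0.26 in GINS2, -0.043 to 0.12 in POLD2, -0.035 to 0.16 in RPA3 and -0.23 to 0.085 in TYMS. The cause of these changes was not tested. POLE2, GINS3 and GINS2 had 50, 55 and 90 reads in the library with the fewest, and the part of depth in their wide intervals was not tested.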
